A study of Homo sapiens with 14 samples.

Results

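The keratin genes are the members described here. They were taken from GENCODE release 44 as protein-coding genes of chromosomes 12 and 17 whose symbol is KRT, a number and at most 1 letter, which left out the keratin-associated protein genes (KRTAP). The rule found 55 genes of 20033 protein-coding genes, 27 in the chromosome 12 cluster and 28 in the chromosome 17 cluster. A KLF4 peak was given to a keratin gene when its summit lay in the gene or within 5 kb of either end, and each peak was counted once in a cluster. The summit is the base at which the authors' peak caller put the top of the peak.

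KLF4 was measured by chromatin immunoprecipitation and sequencing (ChIP-seq) in BEAS-2B, a human bronchial epithelial cell line. Wild-type (WT) cells and cells in which the Nrf2 gene had been disrupted by CRISPR-Cas9 (Nrf2 KO) were compared, each as untreated control and after 6 h in 1 µM arsenite (As3+), to ask how As3+ and Nrf2 set where KLF4 binds. The guides were directed at an exon of Nrf2, and both cell groups came from colonies sorted by whether Nrf2 protein could be seen. A peak list holds no expression values, so neither the loss of Nrf2 nor the epithelial identity of the cells could be checked in these data. Each of the 4 conditions is 1 library, so a difference between conditions has no replicate check, no test was run, and condition and library cannot be told apart.

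Keratins are the intermediate filament proteins of epithelial cells. A type I (acidic) keratin pairs with a type II (basic) keratin to build the filament, and the pair in use marks the epithelium: KRT8 with KRT18 in simple epithelia, KRT5 with KRT14 in basal cells, KRT1 with KRT10 in the upper layers of skin, and the hair keratins in the hair shaft. Type II genes lie together on chromosome 12 and type I genes on chromosome 17, with the exception of KRT18, a type I gene that sits beside its partner KRT8 on chromosome 12 and is counted there. KLF4 is a zinc finger transcription factor known for its role in the differentiation of skin and other epithelia.

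The sequences below are shown because they lie under keratin peaks that were found in several lists or that hold the letters KLF factors are known to bind. All are from the plus strand of GRCh38/hg38, and none overlaps an annotated untranslated region. Capitals mark the KLF word (CCACACCC or CCACGCCC, on either strand) or the AP-1 word (TGACTCA, on either strand), a site class bound by the JUN and FOS family.
Site between the canonical KRT8 and KRT18 transcripts, chr12:52927320-52927531: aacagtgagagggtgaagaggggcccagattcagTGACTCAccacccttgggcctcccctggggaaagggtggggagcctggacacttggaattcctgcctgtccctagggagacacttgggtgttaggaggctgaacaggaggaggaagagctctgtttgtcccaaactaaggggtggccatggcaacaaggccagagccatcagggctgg
KRT7 intron 6 site, chr12:52244210-52244458: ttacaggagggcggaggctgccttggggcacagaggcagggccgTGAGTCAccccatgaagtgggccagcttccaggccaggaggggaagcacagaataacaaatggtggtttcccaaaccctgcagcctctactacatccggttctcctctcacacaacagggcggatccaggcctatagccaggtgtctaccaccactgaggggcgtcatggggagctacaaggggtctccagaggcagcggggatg
KRT80 intron 2 site, chr12:52181982-52182132: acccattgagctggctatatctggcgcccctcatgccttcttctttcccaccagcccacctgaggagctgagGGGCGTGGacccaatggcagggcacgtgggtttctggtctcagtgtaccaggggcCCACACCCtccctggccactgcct
KRT5 upstream site, chr12:52521608-52521758: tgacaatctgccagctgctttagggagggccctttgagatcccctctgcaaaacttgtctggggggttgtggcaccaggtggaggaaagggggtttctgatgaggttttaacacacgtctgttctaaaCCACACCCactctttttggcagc
KRT8 downstream site, chr12:52895429-52895588: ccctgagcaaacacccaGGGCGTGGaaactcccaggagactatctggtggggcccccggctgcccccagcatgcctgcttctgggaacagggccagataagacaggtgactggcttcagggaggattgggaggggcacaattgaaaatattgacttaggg

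The peak lists differed widely in length. They held 751 peaks in the WT control, 29870 in WT As3+, 76545 in the Nrf2 KO control and 130 in Nrf2 KO As3+. From each peak's fold enrichment and p the number of fragments over its summit and the local background were worked out, with medians of 25, 10, 7 and 19 fragments in the same order. These values are not in the files and rest on an assumed form of the fold and of p, which matched the listed values. The lowest background in a list was 1.90, 0.757, 0.491 and 1.64 fragments, so a summit of few fragments could enter the long lists and not the short ones. Total read depth is unknown from these files.

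In the 2 long lists the share of keratin genes with a KLF4 peak lay under the share of all protein-coding genes, which was outside its interval. In WT As3+ 10 of 55 keratin genes had one, 18.2% with an exact 95% interval of 9.08 to 30.9%, where 66.4% of all protein-coding genes did. In the Nrf2 KO control 21 of 55 had one, 38.2% (25.4 to 52.3%), against 80.7% of all protein-coding genes. The intervals here and elsewhere cover counting error only, and neighbouring keratin genes can share a peak.

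The short lists held few keratin peaks. In the WT control 3 of 55 keratin genes had one (5.45%, 1.14 to 15.1%) against 2.54% of all protein-coding genes. In Nrf2 KO As3+ it was 1 of 55 (1.82%, 0.0460 to 9.72%) against 0.459%. These shares lie near the shares of all genes, and the intervals include them.

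Genes of similar length gave shares close to those of all genes. Protein-coding genes whose length fell in the middle range of the keratins, from 5559 to 9387.5 bp, numbered 1792, and 59.9% of them had a peak in WT As3+ and 75.7% in the Nrf2 KO control. The base composition of the keratin windows had a median GC content of 48.2%, against 44.7% for all genes and 50.1% for the genes of similar length. Any part of either in the keratin count was not tested further.

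**Figure D1:**
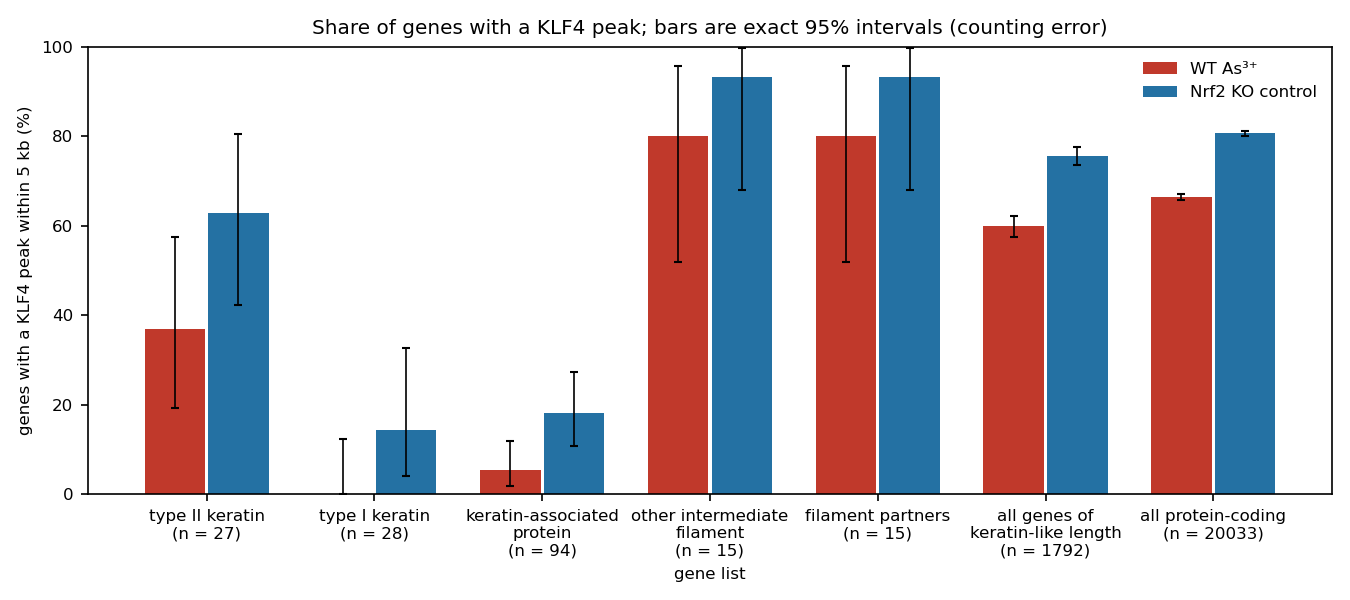
Percentage of genes (y axis, from 0 to 100%) with a KLF4 summit within 5 kb, for 7 gene lists (x axis) in the WT As3+ (red) and Nrf2 KO control (blue) libraries, with exact 95% intervals for counting error. The type I keratin genes stand at 0% in WT As3+, the type II genes (KRT18 of chromosome 12 included) at 37.0%, and all protein-coding genes at 66.4%.

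The 2 keratin clusters stood apart in each long list, with exact intervals that did not overlap. In WT As3+ the 10 keratin genes with a peak were all in the chromosome 12 cluster, 10 of 27 genes (37.0%, 19.4 to 57.6%), and 0 of 28 genes of the chromosome 17 cluster had one, which an exact 95% interval puts at up to 12.3%. In the Nrf2 KO control the counts were 17 of 27 (63%, 42.4 to 80.6%) and 4 of 28 (14.3%, 4.03 to 32.7%). All 3 keratin genes of the WT control and the single gene of Nrf2 KO As3+ were on chromosome 12 as well.

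Counted as peaks rather than genes, the chromosome 12 windows held more peaks per Mb than the windows of all protein-coding genes. They span 0.562 Mb and held 23 WT As3+ peaks, 41.0 per Mb (26.0 to 61.4), where the windows of all protein-coding genes held 16.4 per Mb. They held 48 Nrf2 KO control peaks, 85.5 per Mb (63 to 113), against 39.3 per Mb. Median gene length was 8062 bp in this cluster and 27471 bp over all protein-coding genes. The density for genes of similar length was not worked out, so the part of length is not known. Of the 23 WT As3+ peaks 9 lay from KRT80 to KRT86 and 8 at KRT8 and KRT18. The number of WT As3+ peaks in reach of a gene ran from 1 at KRT84, KRT82, KRT77 and KRT3 to 8 at KRT8.

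The chromosome 17 windows span 0.430 Mb. They held 0 WT As3+ peaks, with an exact upper limit of 8.59 per Mb, and 6 Nrf2 KO control peaks, 14 per Mb (5.12 to 30.4). Both values lie under those of all protein-coding windows in the same library.

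**Figure D2:**
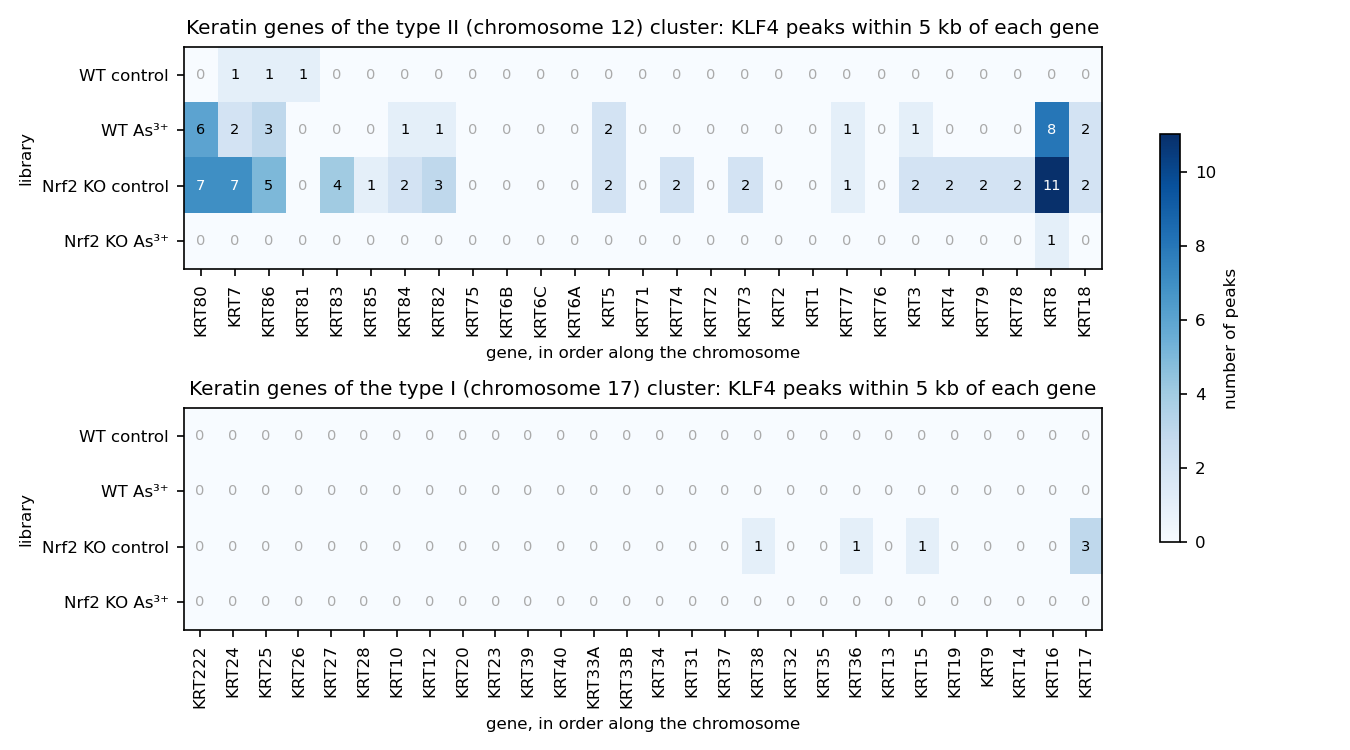
Number of KLF4 peaks within 5 kb of each keratin gene (colour and printed number) in the 4 libraries (rows), with genes in order along chromosome 12 (upper panel) and chromosome 17 (lower panel). KRT80, KRT7 and KRT8 carry 6, 2 and 8 peaks in WT As3+ and 7, 7 and 11 in the Nrf2 KO control, and the chromosome 17 row of WT As3+ holds 0 throughout; a peak in reach of 2 genes is counted at each.

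Along the chromosome 12 cluster the peaks of the 2 long lists were counted in stretches of unequal length. The middle stretch, from KRT83 to KRT78, is the longest, at chr12:52314301-52849092. KRT80 to KRT86 spans chr12:52168996-52309163, and KRT8 and KRT18 span chr12:52897187-52952906. In WT As3+ the stretch from KRT80 to KRT86 held 9 peaks and the KRT8 and KRT18 end held 8, which left 6 for the genes from KRT83 to KRT78 between them. For the Nrf2 KO control the same stretches held 15, 11 and 22 peaks. These counts are not per length, so the 22 peaks do not make the middle stretch the densest. KRT80, KRT7, KRT8 and KRT18, the genes of this cluster in the simple epithelial list used below, lie in the outer stretches.

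The site between the canonical KRT8 and KRT18 transcripts was the keratin site with a peak in Nrf2 KO As3+, and the 2 long lists held a peak there too. Its summit held 17 fragments over a background of 2.12 in WT As3+, a fold enrichment of 5.77. The Nrf2 KO control summit held 23 fragments over 1.32, a fold of 10.3, and in Nrf2 KO As3+ 28 fragments over 4.66, a fold of 5.13. The WT control list held no peak there.

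By rank this site stood highest in the Nrf2 KO control, at 284 of 76545 peaks by fold enrichment. It ranked 6517 of 29870 in WT As3+ and 47 of 130 in Nrf2 KO As3+. The site lies 21.7 kb upstream of the canonical start of KRT18 and between 921 and 992 bp from the start of an alternative KRT8 transcript. It lies inside the annotated span of KRT8 and counts for KRT8 through such long transcripts. With the canonical transcript alone neither gene reaches it, and Nrf2 KO As3+ then has 0 keratin genes with a peak. The AP-1 word printed in its sequence lay 33 bp from the Nrf2 KO As3+ summit, 78 bp from the Nrf2 KO control summit and 104 bp from the WT As3+ summit.

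KRT7, a type II keratin of glandular and ductal epithelia, had the site shared by the WT control and the 2 long lists, in intron 6. In the WT control its summit held 29 fragments over a background of 7.26, a fold of 3.63. In WT As3+ it held 20 over 2.0 (fold 6.99) and in the Nrf2 KO control 14 over 1.45 (fold 6.13). The 3 intervals overlap but the summits do not coincide, and the AP-1 word lay 13 bp from the Nrf2 KO control summit and 141 bp from the WT As3+ summit. The start of an alternative KRT7 transcript lay 266 bp from the WT control summit, 20 bp from the WT As3+ summit and 108 bp from the Nrf2 KO control summit.

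The canonical start of KRT7 had peaks in the Nrf2 KO control and none in WT As3+. They stood 185 bp upstream of the start, with 9 fragments and a fold of 4.21, and 733 bp into the gene in intron 1, with 11 fragments and a fold of 5.98. The remaining WT As3+ peak of KRT7 lay in exon 9, with 12 fragments and a fold of 5.54.

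KRT8 and KRT18, the pair that forms the filaments of simple epithelia, each had peaks at the start site in the 2 long lists. At KRT18 the WT As3+ summit lay 77 bp upstream with 16 fragments over 1.67, a fold of 6.36, and the Nrf2 KO control summit 163 bp upstream with 16 fragments over 1.08, a fold of 8.17. At KRT8 the WT As3+ summit lay 117 bp upstream with 14 fragments, a fold of 5.73, and the Nrf2 KO control summit 183 bp upstream with 11 fragments, a fold of 5.65. Neither canonical start had a peak in the WT control or in Nrf2 KO As3+.

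Further sites around this pair recurred in the 2 long lists. A site upstream of KRT18 had its WT As3+ summit 2938 bp from the start, with 16 fragments and a fold of 5.66, and its Nrf2 KO control summit 3172 bp from it, with 10 fragments and a fold of 4.19. In intron 1 of KRT8 the folds were 5.13 with 14 fragments and 4.00 with 9 fragments. Downstream of KRT8, at the sequence printed above, they were 3.94 with 9 fragments and 5.50 with 10 fragments, and the KLF word lay 63 and 54 bp from the summits.

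KRT80, a type II keratin found in many epithelia, had the highest fold enrichment of the WT As3+ keratin peaks. That peak lay 257 bp upstream of the start, with 25 fragments over 2.62, a fold of 7.19 and rank 2426 of 29870. In the Nrf2 KO control 2 peaks overlapped it. The stronger had its summit 163 bp into exon 1, with 17 fragments over 1.22, a fold of 8.10 and rank 1874 of 76545. The other had its summit in intron 1, 885 bp from the start, with 10 fragments and a fold of 4.49. Of the 6 WT As3+ peaks of KRT80, 5 lay in its introns, and the intron 2 peak (14 fragments, fold 5.13) had a KLF word 1 bp from its summit and another 56 bp away. The Nrf2 KO control list had no peak at that intron 2 site.

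**Figure D3:**
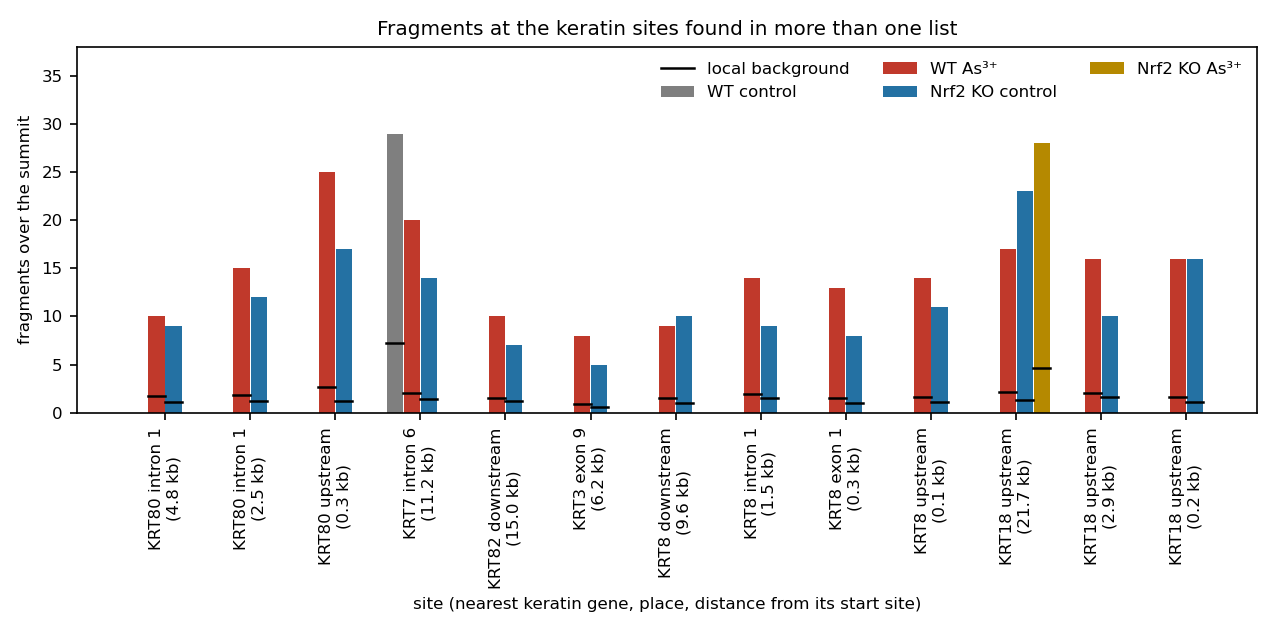
Fragments over the summit (bars, y axis) and local background (black lines) at the 13 keratin sites with a peak in more than 1 list, named by the nearest keratin gene and the distance from its start. The site 21.7 kb upstream of KRT18 reaches 28 fragments in Nrf2 KO As3+ and the KRT7 intron 6 site 29 in the WT control, each over a higher background than in the long lists.

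KRT5, the type II keratin of basal cells, had peaks in the 2 long lists that did not overlap. In WT As3+ a peak 1289 bp upstream held 14 fragments over 1.35, a fold of 6.39, with a KLF word 57 bp from its summit, and a second 3634 bp upstream held 9 fragments, a fold of 3.66. The Nrf2 KO control summits lay in exon 1, with 10 fragments over 0.719 and a fold of 6.40, and 2335 bp upstream, with 7 fragments and a fold of 3.20. KRT14, the type I partner of KRT5, had no peak within 5 kb in any of the 4 lists, and its nearest summits lay 34.4 kb away in WT As3+ and 33.4 kb away in the Nrf2 KO control. KRT15, the other type I basal keratin, had 1 Nrf2 KO control peak in exon 1.

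Counts of the role lists below can be set beside the 66.4% of all protein-coding genes with a WT As3+ peak and the 80.7% with a Nrf2 KO control peak. The keratins induced by injury, KRT6A, KRT6B, KRT6C, KRT16 and KRT17, had 0 of 5 genes with a peak in WT As3+ (up to 52.2%) and 1 of 5 in the Nrf2 KO control (20%, 0.505 to 71.6%). That gene was KRT17, with 3 peaks, of which the highest stood in exon 1 with 7 fragments over 0.499 and a fold of 5.34. The nearest summits to KRT16 lay 33.0 kb away in WT As3+ and 8.24 kb away in the Nrf2 KO control. For KRT6A the distances were 28.4 and 26.7 kb.

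Near-identical copies limit what can be placed at some of these genes, because reads of 75 bases cannot be told apart between them. Of the 75-base words of the gene, 28.5% recur elsewhere in the genome for KRT6C, 21.9% for KRT6B and 13.7% for KRT6A. For the hair keratins KRT81 and KRT86 the shares were 45.4% and 14.8%. On chromosome 17 the highest share of the gene was 6.52%, at KRT16. The part of such copies in the peak counts was not tested.

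The hair keratins KRT86 and KRT81 shared the other WT control peak, in intron 2 of KRT86. Its summit held 33 fragments over a background of 9.68, a fold of 3.18, and it ranked 700 of the 751 WT control peaks. Its background was the highest of the keratin peaks, where the lowest of that list was 1.90. Neither long list had a peak that overlapped it, and for KRT81 it was the sole peak in any list. Of the 3 WT As3+ peaks in reach of KRT86, 2 lay in KRT7 and counted through a long KRT86 transcript, and the third lay in its exon 11 with 15 fragments and a fold of 5.20.

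KRT82, a keratin of the hair cuticle, had the highest fold of the hair keratins in the Nrf2 KO control. That summit lay 20 bp into exon 1, with 9 fragments over 0.542 and a fold of 6.49. In WT As3+ its peak was downstream of the gene, with 10 fragments and a fold of 4.33. Of the 17 hair keratins 3 (KRT86, KRT84 and KRT82) had a peak in WT As3+ (17.6%, 3.8 to 43.4%) and 7 in the Nrf2 KO control (41.2%, 18.4 to 67.1%).

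The keratins grouped here as suprabasal had 2 of 13 genes with a peak in WT As3+, KRT77 and KRT3 (15.4%, 1.92 to 45.4%), and 5 of 13 in the Nrf2 KO control (38.5%, 13.9 to 68.4%). KRT10, the keratin of the upper layers of skin, had none, and its nearest summits lay 169.9 and 170.4 kb away. Of the 9 keratins of the inner root sheath and companion layer of hair, 0 had a peak in WT As3+ (up to 33.6%) and 2 in the Nrf2 KO control (22.2%, 2.81 to 60%). The simple epithelial list had 4 of 7 genes in each long list (57.1%, 18.4 to 90.1%), an interval that includes both shares of all genes and overlaps those of the other role lists. KRT19, KRT20 and KRT23 were its members without a peak. They lie on chromosome 17, and the 4 with a peak lie on chromosome 12. The list includes KRT80, which is found in many epithelia. Its median gene length was 14947 bp, against 7098 bp for all keratins, and the parts of length and of cluster were not tested.

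A stricter threshold left few keratin genes, of which 4 in each long list belong to the simple epithelial list, KRT80 included. These 4, like the other genes kept, lie on chromosome 12, and that list holds longer genes than the keratins as a whole. When peaks had to reach a −log10 q of 5, 6 of 55 keratin genes kept a peak in WT As3+ (38.4% of all protein-coding genes) and 6 of 55 in the Nrf2 KO control (51.1%). In WT As3+ these were KRT80, KRT7, KRT86, KRT5, KRT8 and KRT18, and in the Nrf2 KO control KRT80, KRT7, KRT82, KRT5, KRT8 and KRT18. In the WT control 0 of 55 passed (1.51%) and in Nrf2 KO As3+ 1 of 55 (0.195%).

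Promoters gave lower shares, for the keratins and for all genes. A summit within 2 kb of the canonical start was found at 4 of 55 keratin genes in WT As3+, namely KRT80, KRT5, KRT8 and KRT18, against 52.5% of all protein-coding genes. In the Nrf2 KO control it was 14 of 55 against 67.5%, which added KRT7, KRT83, KRT82, KRT74, KRT73, KRT3, KRT4 and KRT78 on chromosome 12 and KRT15 and KRT17 on chromosome 17. In the WT control and in Nrf2 KO As3+ it was 0 of 55, against 0.794% and 0.195%. Counted by peak, and with the start of any annotated transcript, 15 of 23 WT As3+ keratin peaks (65.2%) lay within 2 kb of a start. For all peaks of that list it was 62.5%. In the Nrf2 KO control it was 35 of 54 (64.8%), against 47.0% of all its peaks.

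RefSeq promoter sequences (GRCh38.p14, 250 bases before to 50 after the start) were matched for 34 of the 55 keratin genes. The others were KRT80, KRT7, KRT86, KRT77 and KRT18, which had a WT As3+ peak, and KRT81, KRT83, KRT78, KRT6A, KRT6B, KRT6C, KRT72, KRT1, KRT13, KRT14, KRT15, KRT16, KRT17, KRT19, KRT222 and KRT23, and their promoters are not in the counts that follow. The 34 matched promoters had a median GC content of 45.7%, against 58.3% over 27305 promoters. The GC box CCCCGCCCC was present in 1 of 34 (2.94%) against 16.0% of all promoters, and the KLF word in 5 of 34 (14.7%) against 8.0%. The antioxidant response element word TGACNNNGC was in 9 of 34 (26.5%) against 13.6%, and the AP-1 word in 0 of 34 against 4.92%. Of the genes with the former, KRT36, KRT4, KRT5 and KRT74 had a peak in a list and KRT24, KRT25, KRT26, KRT31 and KRT33B had none. The 5 promoters with the KLF word belong to KRT2, KRT20, KRT31, KRT33A and KRT33B, none of which had a peak in any of the 4 lists. Among the WT As3+ keratin peaks 1 of 23 held the GC box in the 200 bp around its summit, the peak at the start of KRT18. That is 4.35% (0.110 to 21.9%), where 7.76% of all WT As3+ peaks held it. In the Nrf2 KO control 0 of 54 keratin peaks did (up to 6.60%), against 4.61% of all its peaks.

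**Figure D4:**
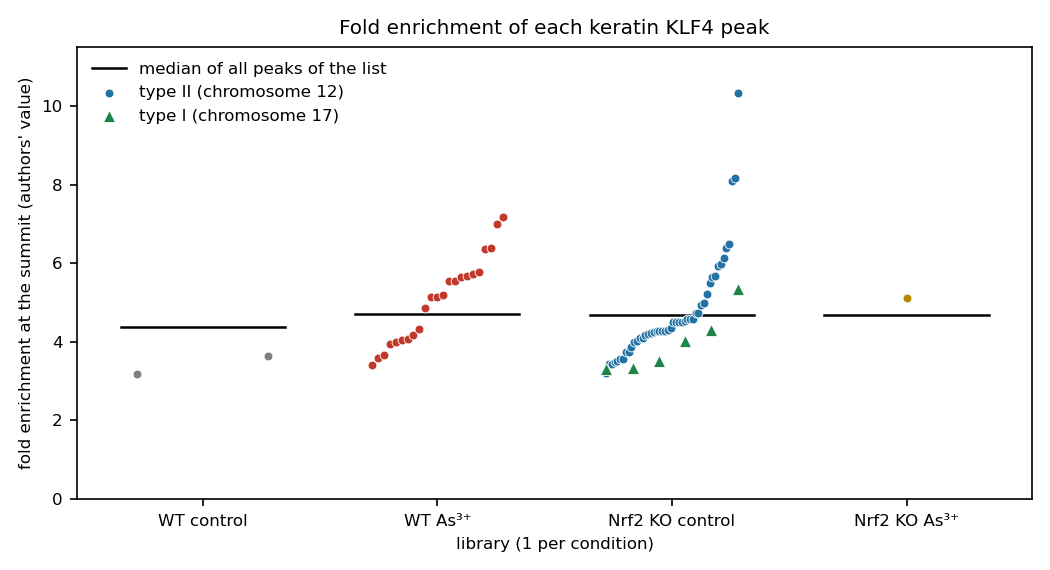
Fold enrichment at the summit (y axis, from 0) of each keratin KLF4 peak in the 4 libraries, with circles for the chromosome 12 cluster, green triangles for the chromosome 17 cluster and black lines for the median of every peak in that list. The Nrf2 KO control peak at 10.3 is the site 21.7 kb upstream of KRT18, and the 6 chromosome 17 peaks run up to 5.34.

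Of the WT As3+ keratin peaks 13 of 23 reached that −log10 q of 5 (56.5%), where 31.9% of all peaks in that list did. Their fold enrichment had a median of 5.13 and ran from 3.41 to 7.19, against a median of 4.72 for all. Among the Nrf2 KO control keratin peaks 9 of 54 reached it (16.7% against 21.1%), with a median fold of 4.31, from 3.20 to 10.3, against 4.69. The Nrf2 KO control list was also cut to its 29870 strongest peaks by p, as many as WT As3+ has. In the cut list 8 of 55 keratin genes had a peak (65.1% of all protein-coding genes), with 12 peaks on chromosome 12 and 1 on chromosome 17. Such a cut removes the weakest peaks by construction, keratin or not.

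The keratin genes with a peak in WT As3+ all had one in the Nrf2 KO control too, namely KRT80, KRT7, KRT86, KRT84, KRT82, KRT5, KRT77, KRT3, KRT8 and KRT18. Over all protein-coding genes 96.3% of those with a WT As3+ peak did so. A further 11 of the 45 other keratin genes (24.4%, beside 49.8% of the protein-coding genes without a WT As3+ peak) had one in the Nrf2 KO control and not in WT As3+, namely KRT83, KRT85, KRT74, KRT73, KRT4, KRT79 and KRT78 on chromosome 12 and KRT38, KRT36, KRT15 and KRT17 on chromosome 17. By peak, 13 of the 23 WT As3+ keratin peaks overlapped a Nrf2 KO control peak by at least 1 bp (56.5%), as did 55.6% of all WT As3+ peaks. Of the 54 Nrf2 KO control keratin peaks, 14 overlapped a WT As3+ peak (25.9% against 21.7%).

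Joined across lists, the peaks formed 64 keratin sites. Of these 40 were in the Nrf2 KO control alone, 10 in WT As3+ alone, 11 in these 2 lists and no other, and 1 in the WT control alone. The last 2 were the site between KRT8 and KRT18 and the KRT7 intron 6 site, each in 3 lists.

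The share of keratin peaks with a given word in the 200 bp around the summit had wide intervals, which included the share over the whole list for each word below. The KLF word was in 4 of 23 WT As3+ keratin windows (17.4%, 4.95 to 38.8%) against 10.3% of all, and in 3 of 54 Nrf2 KO control windows (5.56%, 1.16 to 15.4%) against 9.27%. The AP-1 word was in 0 of 23 (up to 14.8%) against 4.33%, and in 3 of 54 (5.56%) against 2.54%. The antioxidant response element word TGACNNNGC, the core to which Nrf2 is known to bind and which can overlap the AP-1 word, was in 3 of 23 (13.0%) against 9.36%, and in 5 of 54 (9.26%) against 9.17%.

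Chromosome 17 held the longest run of genes without a WT As3+ peak. Between neighbouring summits at chr17:40648204 and chr17:41547902, 899.7 kb apart, lay 58 protein-coding genes, 24 keratin and 34 KRTAP genes. Ranked by the number of protein-coding genes it was 1 of 29846 such stretches, ahead of stretches with 51 genes on chromosome 11 and 50 on chromosome 8, while by length it ranked 525. The next stretch, of 101.0 kb, held the other 4 keratin genes, KRT9, KRT14, KRT16 and KRT17.

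The genes on either side of the chromosome 17 keratins had peaks at an ordinary rate. Of the 20 protein-coding genes to the left 14 had a WT As3+ peak and of the 20 to the right 13 did. Of the same genes 18 and 19 had a Nrf2 KO control peak. Of the 34 KRTAP genes inside, 0 had a peak in WT As3+ and 1 in the Nrf2 KO control, where the longest peak-free stretch at this locus was 476.3 kb with 12 keratin and 16 KRTAP genes and ranked 4 of 76521.

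**Figure D5:**
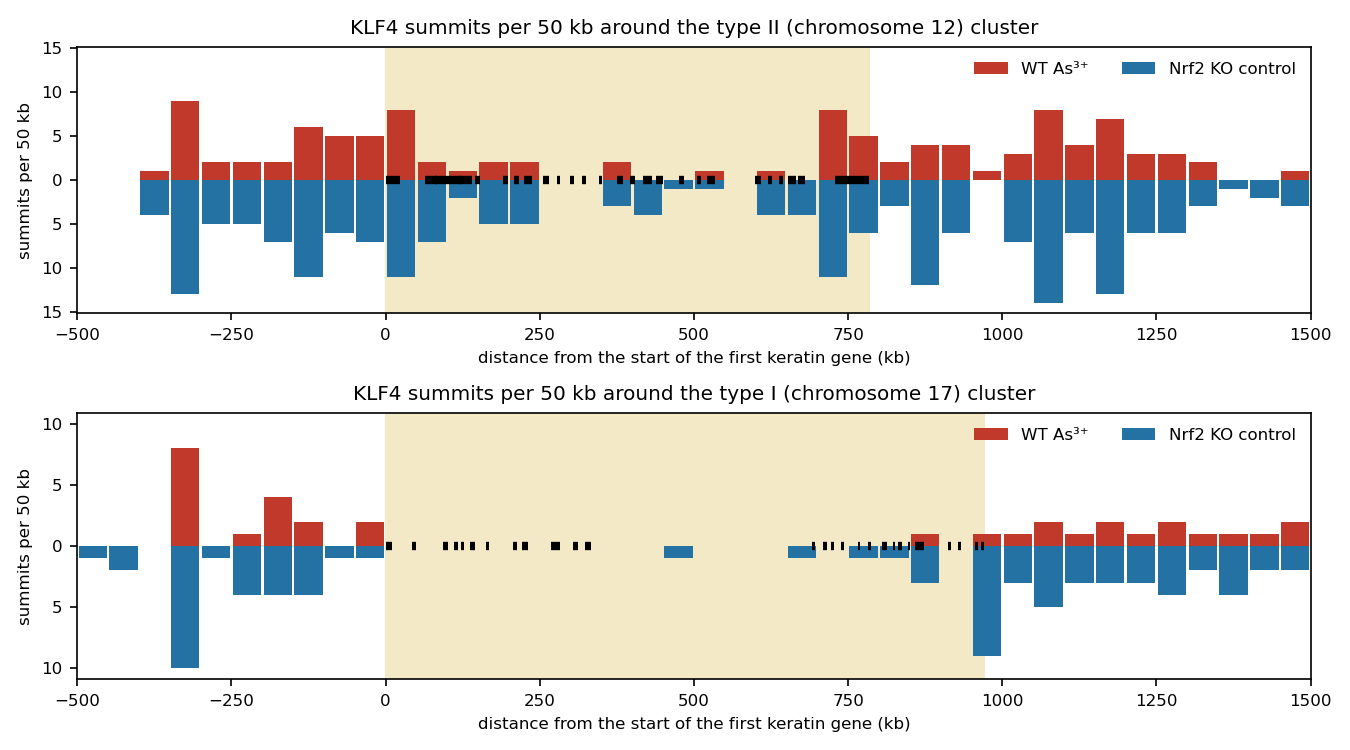
KLF4 summits per 50 kb (y axis, upward for WT As3+ in red and downward for the Nrf2 KO control in blue) against the distance in kb from the start of the first keratin gene, for chromosome 12 (upper panel) and chromosome 17 (lower panel); black marks are keratin genes and the shaded band is the locus. WT As3+ summits are most numerous at the ends of the chromosome 12 locus, and the chromosome 17 locus has a stretch of 899.7 kb without one, in which Nrf2 KO control summits occur.

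The base composition of the keratin windows differed between the clusters. The median GC content was 49.6% for chromosome 12 and 43.7% for chromosome 17, beside 44.7% for all protein-coding genes. It was 50.1% for the 1792 genes of similar length. For all protein-coding genes of chromosome 12 it was 44.2%, and for those of chromosome 17 it was 50.2%. The 24 chromosome 17 genes without a peak in any list had 42.6% and the 4 with one 53.0%, and on chromosome 12 the 9 without had 46.7% and the 18 with one 50.4%. The part of base composition in the peak counts was not tested.

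Without a peak in any of the 4 lists were KRT75, KRT6B, KRT6C, KRT6A, KRT71, KRT72, KRT2, KRT1 and KRT76 on chromosome 12. On chromosome 17 they were KRT222, KRT24, KRT25, KRT26, KRT27, KRT28, KRT10, KRT12, KRT20, KRT23, KRT39, KRT40, KRT33A, KRT33B, KRT34, KRT31, KRT37, KRT32, KRT35, KRT13, KRT19, KRT9, KRT14 and KRT16. For the chromosome 17 genes the nearest summit lay a median of 112.5 kb away in WT As3+ and 34.6 kb in the Nrf2 KO control, where over all protein-coding genes the median was 0 kb.

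With windows of 10 kb in place of 5 kb, 13 keratin genes had a WT As3+ peak and 27 a Nrf2 KO control peak. The share of all protein-coding genes was not worked out at 10 kb, so this rise cannot be set beside theirs. KRT19, a type I simple epithelial keratin, had its nearest Nrf2 KO control summit 5030 bp away, just outside, and KRT72, KRT35 and KRT222 had theirs at 5914, 6314 and 6953 bp. In WT As3+ KRT83 was at 5771 bp, KRT85 at 6116 bp and KRT222, the chromosome 17 member nearest to a summit, at 6461 bp. Just inside were KRT85 at 3545 bp in the Nrf2 KO control and KRT82 at 2587 bp in WT As3+.

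Among other intermediate filament genes, and among filament partners, the share with a peak was above that of the keratins. Median gene length was 13209 bp and 32328 bp in these lists, against 7098 bp for the keratins, and the part of length was not tested. Of 15 other intermediate filament genes, 12 had one in WT As3+ and 14 in the Nrf2 KO control (80.0%, 51.9 to 95.7%, and 93.3%, 68.1 to 99.8%), and the same counts held for 15 filament partners such as desmosomal and plakin proteins. These intervals include the 66.4% and 80.7% of all protein-coding genes. VIM, the mesenchymal filament protein vimentin, had 2 peaks in each long list and 1 in the WT control, LMNA, which encodes the A-type lamins, 8 in WT As3+ and 25 in the Nrf2 KO control, PLEC, the linker plectin, 20 and 35, and DSP, desmoplakin, 2 and 3. Of all 94 KRTAP genes, which encode the matrix proteins of hair, 5 had a peak in WT As3+ (5.32%) and 17 in the Nrf2 KO control (18.1%), under those shares of all genes.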

How the data were processed

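KLF4 ChIP-seq libraries of BEAS-2B cells were analysed, 1 for each of the 4 conditions. The authors aligned reads of 75 nt to GRCh38/hg38 with BWA, and the labels name bcl2fastq 2.17 in the submitters' processing notes. The peak caller and its settings are not given in the sources used here, nor is the use of the input library. Per library, the authors deposited narrow peak lists of 10 columns, with a linear ratio (fold enrichment over local background), −log10 p, −log10 q and a score that was 10 times −log10 q rounded down. No replicate exists, so no test was run.

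Groups were taken from the sample titles. Genes and canonical transcripts came from GENCODE 44 (Ensembl 110). Gene windows ran from 5 kb before to 5 kb after the gene. Fragments (n) and background (λ) were solved from fold = (n + 1)/(λ + 1) and p as an upper Poisson tail, an assumed form since the caller is not named. Shares carry exact Clopper-Pearson 95% intervals, and densities exact Poisson ones. Sequence words and 75-base copies were counted in the genome on both strands. On simulated data 100% of genes with a planted peak and 100% of fragment counts were recovered. Python 3.11.15, numpy 2.4.6, pandas 2.3.3 and scipy 1.17.1 were used.

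The members, lists and alternatives were chosen with earlier results of these data known. Named with values are members with a peak in either short list, those at the 8 strongest peaks of each long list, and KRT5, KRT14, KRT7, KRT8, KRT18, KRT19, KRT80, KRT6A, KRT16, KRT17 and KRT10. Members near the 5 kb limit, those with the GC box or the fewest and most peaks, KRT15, KRT6B and KRT6C were added after their values were seen. Alternatives were a stricter q, other window sizes, the peak interval in place of the summit, equal list lengths, other overlap rules and word windows, and canonical transcripts. The histone mark and input samples of the series were not used here.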

Additional observations from a re-analysis of the deposited data

Results flagged for a closer look

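The number of keratin genes with a KLF4 peak moved in opposite directions after As3+ in WT and Nrf2 KO cells. From control to As3+ it rose by 7 genes in WT, from 3 to 10, and changed by -20 genes in Nrf2 KO, from 21 to 1. With 1 library for each condition the difference was not tested, and the lists they come from differed in the same directions, from 751 to 29870 peaks in WT and from 76545 to 130 in Nrf2 KO.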

How the results depend on the processing

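Of 105 alternative values 75 stayed within 1.5 times the reported count or within its interval and 30 moved. When peaks had to reach a −log10 q of 5, keratin genes with a peak fell to 0 in the WT control, 6 in WT As3+ and 6 in the Nrf2 KO control, with 0, 13 and 9 peaks on chromosome 12 and 0 Nrf2 KO control peaks on chromosome 17. With 10 kb windows chromosome 17 gained 2 WT As3+ peaks. With the Nrf2 KO control list shortened to the length of WT As3+ it had 8 keratin genes, 12 peaks on chromosome 12 and 1 on chromosome 17. Among the 130 strongest peaks of each list, the WT control, WT As3+ and Nrf2 KO control had 0 keratin genes and 0 peaks in either cluster. With canonical transcripts, an alternative added after seeing the data, Nrf2 KO As3+ had 0 genes and 0 peaks. Of the WT As3+ keratin peaks 30.4% had a Nrf2 KO control summit within 100 bp, against 22.9% of all WT As3+ peaks. For a WT control summit it was 0% against 1.59%. When peaks of both lists had to reach a −log10 q of 5, 0% overlapped the WT control, against 3.62% of all. In 400 bp windows the AP-1 word reached 21.7% in WT As3+, against 7.77% of all its peaks. In the Nrf2 KO control the antioxidant response element word reached 25.9% (17.6% of all) and the GC box 7.41% (8.38%). In 100 bp windows the antioxidant response element word was in 0% of WT As3+ keratin windows, against 4.80% of all. Among its peaks that reached a −log10 q of 5, the Nrf2 KO control had the KLF word in 0%, the AP-1 word in 22.2% and the antioxidant response element word in 0%. Fewer peaks or wider windows enter by construction, and other causes were not tested. No paired analysis was possible because each condition has 1 library and no result comes from a test. Small counts and unknown read depth limit every comparison between lists.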
